A study of Mus musculus with 20 samples.

Results

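The genes described here are 40 genes of the cell cycle and of mitosis, taken by name from a table of 45700 mouse genes. They were chosen by their known roles in dividing cells, with earlier results of these data known, and no threshold on their values was used: 7 mitotic kinases and cyclins, 4 genes of the spindle checkpoint and the anaphase-promoting complex, 9 of the kinetochore, spindle and cytokinesis, the proliferation marker Mki67 with the topoisomerase Top2a, 9 of replication licensing and the replicative helicase, 6 of DNA synthesis and nucleotide supply, and 3 of the G1/S transition. The first 4 of these sets are called the mitotic members below (22 genes), and the licensing and DNA synthesis sets the S-phase members (15 genes). RNA-seq of total cytoplasmic RNA and POL-seq of polysomal RNA had been performed on brains of "Taiwanese" mice, a severe model of spinal muscular atrophy (SMA), and of their control littermates, to ask which transcripts change in amount and which in their association with translating ribosomes. SMA mice were Smn-/-; SMN2tg/0, that is, without murine Smn and with 2 copies of the human SMN2 transgene on a single allele. Controls were phenotypically normal Smn-/+; SMN2tg/0 littermates, so that the controls also carried the transgene and had lost 1 Smn allele, and all mice were congenic FVB. Each genotype had 2 total and 2 polysomal libraries at postnatal day 5, the early-symptomatic stage, and 3 of each at postnatal day 7, the late-symptomatic stage, 20 libraries in 8 groups. Each is labelled as RNA of a mouse brain. Whether a replicate number marks the same brain in both fractions is not stated, so the number of mice is not known. Total RNA was pooled from all fractions of a sucrose gradient and polysomal RNA from the polysomal fractions alone, and the tissue is whole brain, so that fewer cells of a type and less RNA per cell cannot be told apart in any value below.

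Values are FPKM, fragments per kilobase of transcript divided by the library's mapped fragments, which can be compared between genes because they are per length. Changes are differences in log2(FPKM + 0.1) with the standard error (SE) of the limma fit, and this scale understates the change of genes at low FPKM. A gene was tested if its mean over the 20 libraries was at least 1 FPKM, which 15247 genes passed, and was called at an unadjusted p under 0.05. The adjusted p (Benjamini-Hochberg) was taken over all 15247 genes. Of the 40 members, 38 were tested. The remaining 2 were Cdc6, a loader of the replicative helicase, with a mean of 0.635 FPKM, and Kif23, a kinesin of cytokinesis, with a mean of 0.992 FPKM. A permutation test of a single gene cannot go below a two-sided p of 0.333 with 2 libraries per group or 0.1 with 3. The calls therefore rest on the spread that limma shares among genes, and p-values measure the spread between these libraries. Comparisons across fractions treated libraries as independent, although a total and a polysomal library may come from the same brain.

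The values of Smn1 did not check the genotype labels. This gene is disrupted in the mutant allele, and its value is read over the whole gene, including sequence that the allele may keep. Total RNA held 9.71 and 8.92 FPKM of Smn1 in the early control libraries and 9.55 and 10.1 FPKM in the early SMA libraries. At the late stage it held 13.6, 14.1 and 16.7 FPKM in controls and 11.9, 12.7 and 17.5 FPKM in SMA. The groups overlapped in both, as they did in polysomal RNA, so every direction below is between the libraries labelled SMA and those labelled control. The tissue label was borne out: the neuronal genes Snap25, Map2 and Stmn2 averaged 301, 384 and 1176 FPKM, whereas Alb, the main secretory product of liver, averaged 0.0305 FPKM and Ttn, a giant muscle protein, 0.404 FPKM.

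Libraries of 2 kinds stood apart. At day 7, the SMA library numbered 3 held the lowest value of the 6 libraries for 30 of the 40 members in total RNA and for 34 in polysomal RNA. The control library numbered 3 held the highest value for 37 and 33 members. For the members, the calls and medians of the late genotype comparisons are therefore given with and without both of them. In the day 5 control polysomal libraries, all 66 tested genes of a stretch of chromosome 8 (GRCm38, chr8:119910360-124345724) were listed at 0 FPKM, among them the muscle gene Acta1 and the members Cdt1 and Gins2. Fitted log2 values of these 2 members against those libraries are set by the pseudocount and are not read as fold changes.

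Cells that divide copy their DNA in S phase and separate the copies in mitosis. The transition from G1 into S phase is driven by cyclin E with its kinase and by E2F transcription factors, which are held back by RB proteins and by CDK inhibitors such as p21. Origins of replication are licensed by CDC6 and CDT1, which load the MCM helicase. The polymerases with their clamp PCNA then copy the template, and ribonucleotide reductase and thymidylate synthase supply deoxynucleotides. Entry into mitosis needs CDK1 with its B-type cyclins, and the anaphase-promoting complex with CDC20 ends it by marking cyclin B for destruction once the spindle checkpoint is satisfied. In the brain of a newborn mouse, most neurons have already left the cycle, and division continues mainly in granule cell precursors of the cerebellum, in progenitors of the ventricular walls and of glia, and in the growing vessels.

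Promoters of such genes are known for short shared elements: the CCAAT box, bound by the factor NF-Y, the CHR (cell cycle genes homology region), bound by the DREAM and MuvB complexes, and E2F sites. RefSeq promoter windows of GRCm38.p6 were found for 32 of the 40 members, and the 250 bases before the start were searched on both strands. CCAAT stood in the windows of 26 of the 32 members (81.2%), against 37.5% of the 27025 genes in the whole set of RefSeq promoter windows. TTTGAA, the core of the CHR, was found in 9 members (28.1%), against 18.3% of all. E2F sites, searched as TTTCCCGC, TTTCGCGC, TTTGCCGC and TTTGGCGC, were found in 6 members (18.8%), against 2.16% of all. Among the 18 mitotic members with a window, 44.4% held TTTGAA and 5.56% an E2F site. Among the 13 S-phase members with a window, 7.69% held TTTGAA and 38.5% an E2F site. A match describes the letters of a window and is not a site shown to be bound. The 200 bases before the start are shown for 3 mitotic members and 1 helicase subunit that recur in the results, each on the minus strand and written 5′ to 3′ in the direction of transcription. Capitals mark matches to the CCAAT box, the CHR core and E2F sites on either strand. The positions are chr10:69352913-69353112 for Cdk1, chr9:70421555-70421754 for Ccnb2, chr4:118437344-118437543 for Cdc20 and chr1:128359706-128359905 for Mcm6.
Cdk1: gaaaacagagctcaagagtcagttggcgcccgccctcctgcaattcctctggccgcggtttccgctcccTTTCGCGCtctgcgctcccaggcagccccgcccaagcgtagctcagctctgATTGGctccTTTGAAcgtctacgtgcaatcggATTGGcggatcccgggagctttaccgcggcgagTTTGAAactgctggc
Ccnb2: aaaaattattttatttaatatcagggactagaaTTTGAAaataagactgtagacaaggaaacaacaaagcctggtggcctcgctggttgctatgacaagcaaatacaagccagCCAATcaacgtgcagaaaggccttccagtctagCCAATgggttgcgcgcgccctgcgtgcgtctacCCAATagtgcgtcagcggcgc
Cdc20: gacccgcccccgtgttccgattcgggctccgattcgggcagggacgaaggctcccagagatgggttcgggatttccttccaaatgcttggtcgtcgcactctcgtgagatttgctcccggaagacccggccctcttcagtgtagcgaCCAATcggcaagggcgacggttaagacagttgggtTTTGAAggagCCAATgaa
Mcm6: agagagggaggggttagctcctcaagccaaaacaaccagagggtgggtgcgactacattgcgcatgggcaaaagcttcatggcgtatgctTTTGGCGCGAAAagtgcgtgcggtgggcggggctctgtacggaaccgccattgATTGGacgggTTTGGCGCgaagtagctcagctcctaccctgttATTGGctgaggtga
The Cdk1 stretch holds 2 CCAAT matches, 2 TTTGAA matches and 1 E2F match, and that of Ccnb2 holds 3 CCAAT matches and 1 TTTGAA match. Cdc20 has 2 CCAAT matches and 1 TTTGAA match. Mcm6 has 2 CCAAT matches, no TTTGAA and 3 E2F matches, some of which overlap. The last 26 bases of the Cdk1 stretch and the last 9 of the Cdc20 stretch lie in annotated exons, and the other stretches lie outside exons.

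Cdk1 was also measured by qPCR in the study, and the oligos show which part of the transcript that assay read.
Forward primer: gacgctgtggtaccgatctc
Reverse primer: tctgagtcgccgtggaaaag
Both primers matched coding sequence of exon 6 of the transcript Cdk1-201, at chr10:69340854-69340873 and chr10:69340742-69340761, and frame a product of 132 bases that 4 of the 7 annotated Cdk1 transcripts hold. The FPKM values below are for the whole gene, not for this product.

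The members rose and fell together from library to library. Over the 20 libraries, the Pearson correlation of a member with the median of the others had a median of 0.923 and was above 0.8 for 29 of 40 members. It was below 0 for Gins2, Cdt1, E2f1 and Pola1, the first and second of which are listed at 0 in both day 5 control polysomal libraries. After subtraction of the group means, the median was 0.886, 28 members were above 0.8, and Pola1 alone was below 0, at -0.0193, while Gins2 and Cdt1 stood at 0.762 and 0.752. All points share the library and its depth, so these correlations are descriptions. The most abundant member was Pcna, the sliding clamp of the replicative polymerases, with a mean of 37.4 FPKM, and the next were Mcm7, a helicase subunit, with 13.7 FPKM and Cdk1 with 11.3 FPKM.

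**Figure D1:**
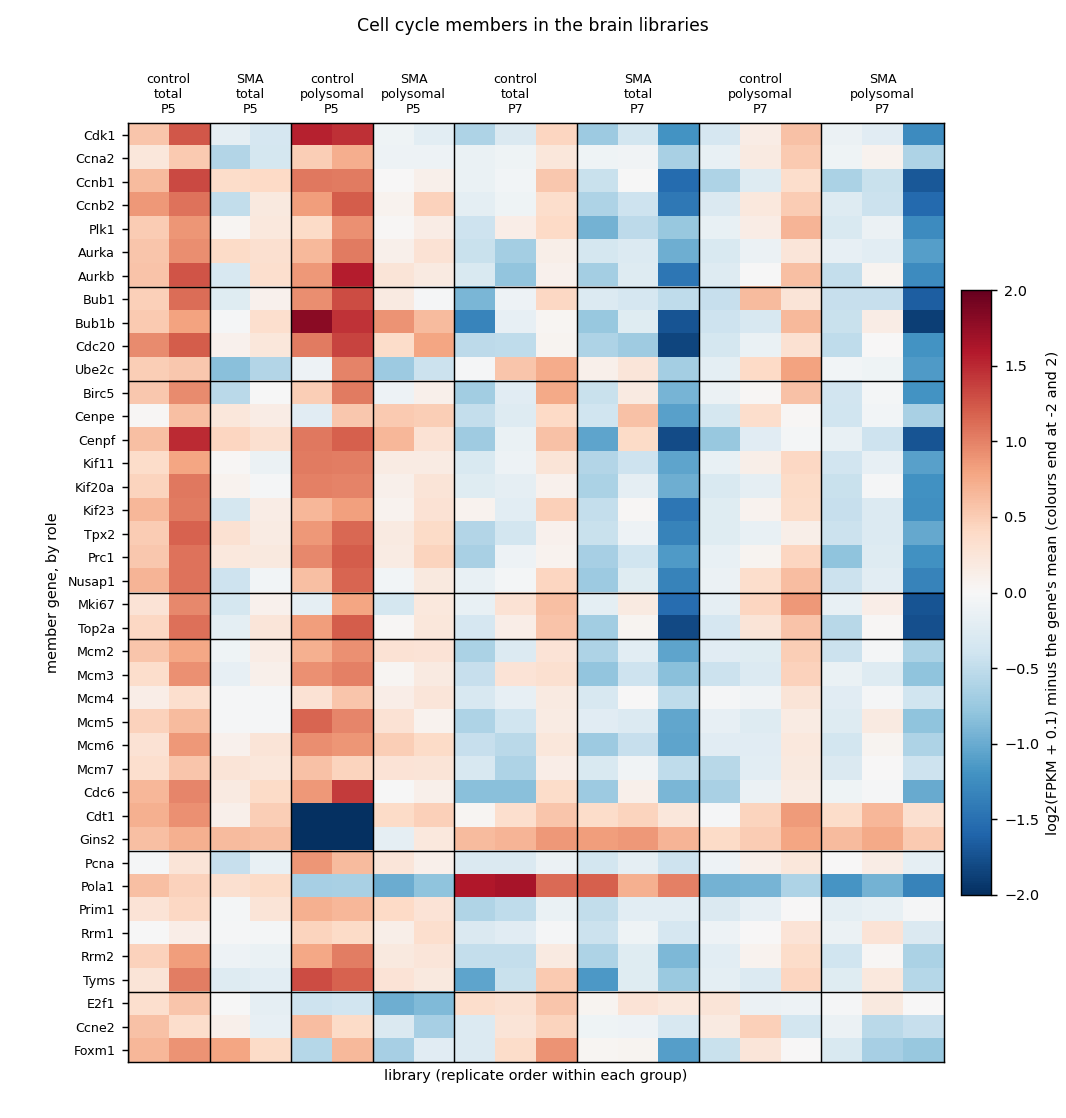
Value of each of the 40 members in each of the 20 libraries, as log2(FPKM + 0.1) minus the member's mean over the libraries (colour), with members ordered by role in rows and libraries by stage, fraction and genotype in columns. Control libraries of day 5 are the highest block, and the SMA libraries numbered 3 of day 7 are the lowest columns.

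Early-symptomatic brains held less of the cell cycle members in total RNA. All 38 tested members were lower in SMA by the fitted change, with a median log2 change of -0.61, whereas the median of all tested genes was 0.01. The change reached the threshold for 13 of the 38, all lower, against 3.89% of all tested genes called lower and 4.36% called higher. Both SMA libraries lay below both controls for 35 of the 38, against 22.5% of all tested genes. No member passed an adjusted p of 0.05 in limma, as 0.164% of all tested genes did, and the adjusted p of the 13 was 0.551. A test of only the genes above 0 in every library called 25 members. A stricter filter, a mean of 5 FPKM or more, kept 17 members and called 5. The share of all genes called under these 2 filters was not counted, so the counts of 25 and 5 have no such share beside them. The number called depended on single libraries: it was 2 without the control numbered 2, 3 without the SMA library numbered 1 and 8 without the SMA library numbered 2, with medians of the members between -0.86 and -0.40 whichever of the 4 was left out.

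Among the mitotic kinases and cyclins, 4 of 7 fell in early total RNA: Cdk1, Ccna2, Ccnb2 and Plk1. Cdk1, the kinase that drives entry into mitosis, stood at 14.4 and 23.2 FPKM in controls and at 8.57 and 7.68 FPKM in SMA. The SMA values were all below the controls, and the log2 change was -1.16 ± 0.29 (SE; limma, adjusted p = 0.551). Its partner Ccnb2, cyclin B2, stood at 5.20 and 6.11 FPKM in controls and 1.97 and 3.23 FPKM in SMA (-1.13 ± 0.30; limma, adjusted p = 0.551), also without overlap. In the checkpoint and anaphase-promoting set, 2 of 4 fell. Ube2c, the ubiquitin-conjugating enzyme that works with the anaphase-promoting complex, had the largest change of any member, from 8.69 and 8.97 FPKM to 3.40 and 4.08 FPKM. The SMA values lay far below both controls, a log2 change of -1.22 ± 0.15 (limma, adjusted p = 0.551). Its exons share 592 bases with Tnnc2 on the opposite strand, and a read there may have been counted for either gene. Exons of Gins2, Kif20a, Prc1, Ccne2, Ccna2, Mcm7, Nusap1, Plk1 and Cdc20 also share bases with a neighbour on the opposite strand, from 2758 for Gins2 to 53 for Cdc20. Plk1 shares 156 bases. Cdc20, the activator of the same complex, was the other (-0.92 ± 0.16; limma, adjusted p = 0.551).

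Of the 8 tested kinetochore, spindle and cytokinesis genes, Nusap1, Birc5 and Kif11 fell. Nusap1, which bundles spindle microtubules, stood at 4.06 and 5.39 FPKM in controls and at 1.85 and 2.40 FPKM in SMA (-1.11 ± 0.24; limma, adjusted p = 0.551), with no overlap. Birc5, the survivin subunit of the chromosomal passenger complex, changed by -1.02 ± 0.28. Mki67, the antigen by which dividing cells are counted in sections, stood at 4.15 and 6.78 FPKM in controls and at 2.67 and 3.64 FPKM in SMA. The groups did not overlap, but the control libraries differed from each other by more than the SMA libraries did, and the threshold was missed (-0.75 ± 0.34; limma, adjusted p = 0.551). Top2a, which untangles sister chromatids, stood at 8.09 and 13.1 against 5.26 and 7.18 FPKM and likewise missed it (-0.74 ± 0.33). With the control numbered 2 left out, Mki67 was at -0.40 and Top2a at -0.39, and with that numbered 1 left out at -1.10 and -1.08. In the replication sets the changes were smaller. The median was -0.42 over the 14 tested S-phase members and -0.74 over the 21 tested mitotic members. Called were Mcm2 and Mcm5 of the helicase, at -0.63 and -0.57, and Rrm2, the regulated subunit of ribonucleotide reductase, at -0.77. Of the 3 G1/S genes, E2f1 alone was called, at -0.54.

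On polysomes of the same stage more members were called lower than in total RNA. The fitted change was below 0 for 35 of 38 members, with a median of -0.69 against -0.01 for all tested genes. Lower values were called for 26 members, against 6.82% of all tested genes, and higher values for 2, Cdt1 and Gins2, against 5.65%. The SMA libraries lay below both controls for 33 of the 38, against 26.6% of all. Of the 13 members called lower in total RNA, 10 were called lower here too. The other 3 were Ube2c, at 5.77 and 12.42 FPKM in controls and 3.69 and 4.54 FPKM in SMA (-1.03 ± 0.45; limma, adjusted p = 0.432), Cdc20 at -0.61 and Plk1 at -0.56. In either direction 28 members were called, 18 with a single model over all libraries and 12 with the filter of 5 FPKM. Without the SMA library numbered 1 or 2, 15 or 12 members were called, and the medians with any library left out lay between -0.83 and -0.54.

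**Figure D2:**
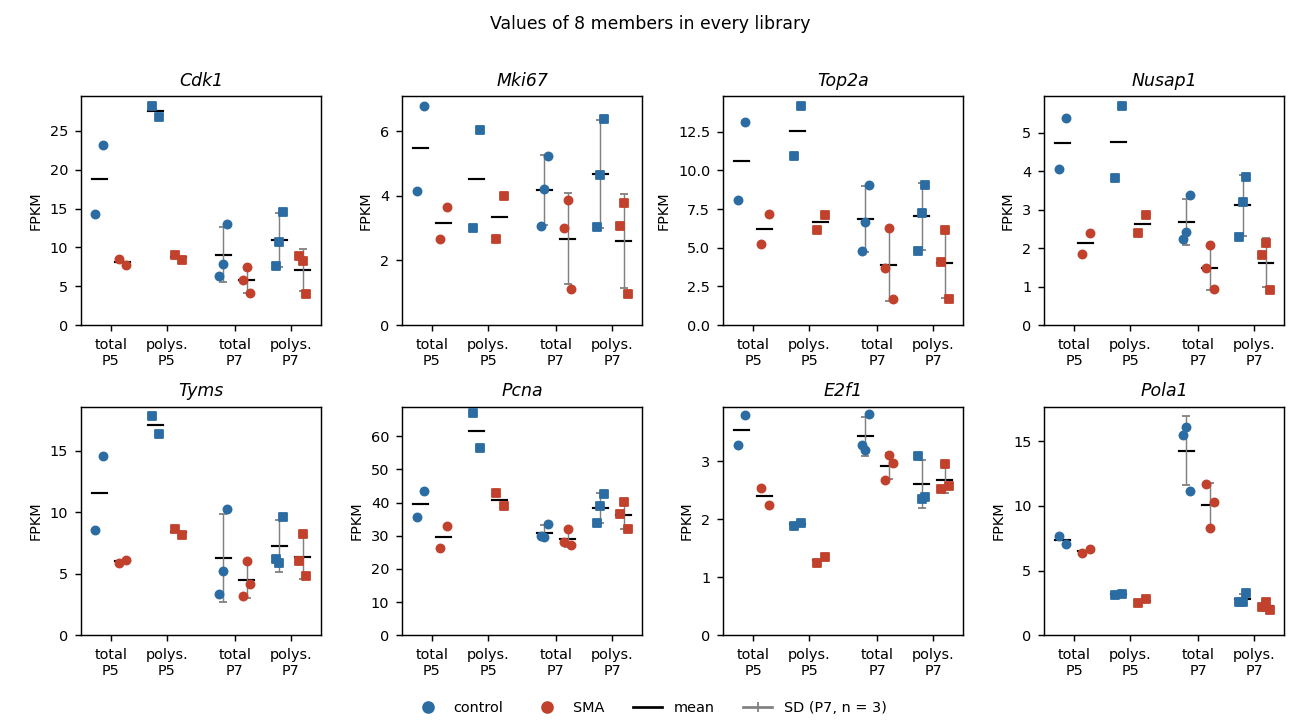
FPKM of 8 members (a panel each, linear axis from 0) in every library, by stage, fraction and genotype; points are libraries and bars are group means. Cdk1 on polysomes at day 5 shows the widest gap, 28.2 and 26.8 FPKM in controls against 9.08 and 8.33 FPKM in SMA, while at day 7 the groups overlap.

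Cdk1 on early polysomes stood at 28.2 and 26.8 FPKM in controls and at 9.08 and 8.33 FPKM in SMA. Replicates agreed closely within each genotype, and the log2 change was -1.65 ± 0.09 (SE), with an adjusted p of 0.0305 in limma, the only fall among the members to pass that adjustment, against 0.649% of all tested genes in either direction. Cyclins B1 (Ccnb1) and B2 and cyclin A2 fell with it, at log2 changes of -1.0, -0.76 and -0.71, as did the Aurora kinases. Aurkb, the kinase of the chromosomal passenger complex, stood at 3.73 and 6.15 FPKM in controls and 2.42 and 2.27 FPKM in SMA (-1.0 ± 0.30; limma, adjusted p = 0.392). The change was -0.65 without the control numbered 2 and -1.35 without that numbered 1. The SMA values lay below both controls, which differed from each other more than the SMA libraries did. Aurka changed by -0.64. The checkpoint kinases fell too. Bub1 stood at 3.07 and 4.01 FPKM in controls and at 1.78 and 1.53 FPKM in SMA, without overlap (-1.04 ± 0.20; limma, adjusted p = 0.381), and its relative Bub1b changed by -0.86.

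In the kinetochore and spindle set, 7 of 8 tested genes fell on early polysomes, Cenpe being the exception. Their log2 changes ran from -0.87 for Kif11, the kinesin that pushes spindle poles apart, to -0.64 for Cenpf. Top2a fell, from 10.9 and 14.2 FPKM to 6.14 and 7.12 FPKM (-0.90 ± 0.19; limma, adjusted p = 0.381). Mki67 was not called: its controls, 3.01 and 6.02 FPKM, overlapped the SMA libraries, 2.66 and 4 FPKM (-0.38 ± 0.45; limma, adjusted p = 0.688). Among the replication genes, Mcm2, Mcm3, Mcm5 and Mcm6 fell, at -0.53, -0.85, -0.89 and -0.46. Tyms, thymidylate synthase, stood at 17.9 and 16.4 FPKM in controls and 8.62 and 8.15 FPKM in SMA. The values of each genotype lay close together, with a change of -1.02 ± 0.10 (limma, adjusted p = 0.161). Pcna, Prim1 and Rrm2 fell as well, at -0.59, -0.36 and -0.67. Of the G1/S genes, Ccne2 (cyclin E2) changed by -0.98 and E2f1 by -0.53, and both were called. Cdt1, the licensing factor, was listed at 0 in both control libraries and at 1.76 and 1.89 FPKM in SMA. Gins2, a subunit of the helicase's GINS partner, was listed at 0 in the controls and at 3.53 and 4.67 FPKM in SMA. Their calls belong with the chromosome 8 stretch that is listed at 0 in those control libraries.

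**Figure D3:**
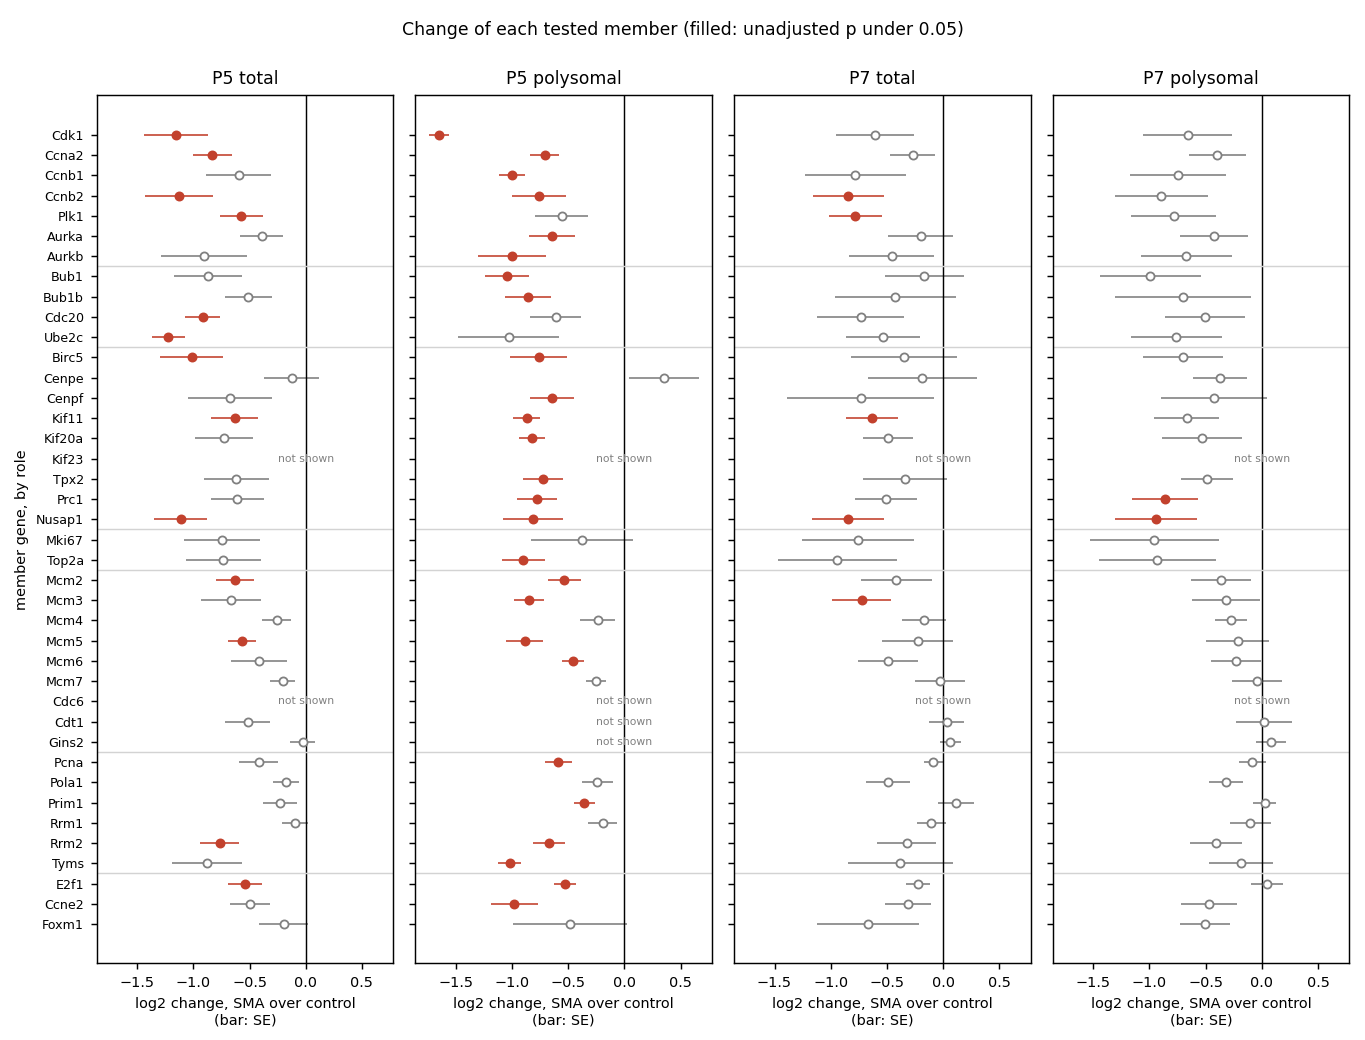
Log2 change of each tested member between SMA and control (points, with the SE as a bar) in the 4 comparisons of genotype, grouped by role. Filled points mark an unadjusted limma p under 0.05. Cdt1 and Gins2 are not drawn in the day 5 polysomal panel. Nearly all points lie below 0 at day 5, mitotic sets further than replication sets, and at day 7 all but 3 points in total and 4 in polysomal RNA lie below 0, with few filled.

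Genes of the same pathway outside the 40 were lower as well. Of 37 tested other mitotic genes, 18 were called lower in early total RNA and 27 in early polysomal RNA, and none higher, with medians of -0.64 and -0.75. For all lists of this paragraph, the shares of all tested genes called lower were 3.89% and 6.82%. At day 7 they were 4.7% and 5.38%. The leading ones in total RNA were Sgol1, which guards centromeric cohesion, at -1.56, Cenpa, the histone of centromeres, at -1.11, and Cks2, a CDK subunit, at -1.10. On polysomes they were the kinase Pbk at -1.15 and the kinetochore genes Nuf2 and Spc24 at -1.14 and -1.12. Of 39 other S-phase genes, 10 and 17 were called lower and none higher, with medians of -0.39 and -0.46. Esco2, the acetyltransferase that sets cohesion during replication, led them in both fractions, at -1.33 and -1.20. Of 21 tested G1 cyclins, kinases and E2F regulators, 4 and 5 were called lower, among them Cdk2 (-0.59 and -0.67) and Cdk4 (-0.46 and -0.48), and their medians were nearer to 0, at -0.15 and -0.08. On polysomes 1 of them was higher, Fzr1, the other activator of the anaphase-promoting complex. At day 7, 3 and 6 of the other mitotic genes were called lower in total and polysomal RNA, with medians of -0.45 and -0.49. For the S-phase list they were 3 and 4, with 1 and 0 higher, and medians of -0.11 in both. The G1 list had 1 and 3 lower. Without both libraries numbered 3, the mitotic list had 1 and 3 lower, 0 and 2 higher and medians of -0.04 in both. The S-phase list then had 0 and 1 lower and 0 and 3 higher, and the G1 list 1 and 0 lower and 1 and 2 higher.

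Among 5 tested CDK inhibitors, Cdkn1a was higher in SMA in every comparison of genotype. It encodes p21, the inhibitor of cyclin-dependent kinases that is induced by p53. In early total RNA it stood at 10.8 and 8.89 FPKM in controls and at 14.4 and 13.9 FPKM in SMA (0.52 ± 0.14; limma, adjusted p = 0.551). On early polysomes it stood at 5.85 and 8.86 against 13.2 and 15.9 FPKM (1.00 ± 0.27; limma, adjusted p = 0.386). In late total RNA the controls were at 13.5, 13.0 and 16.8 FPKM and the SMA libraries at 22.2, 22.7 and 21.3 FPKM (0.62 ± 0.11; limma, adjusted p = 0.238). Late polysomes gave 13.2, 13.8 and 15.4 against 23.3, 24.5 and 21.1 FPKM (0.70 ± 0.09; limma, adjusted p = 0.154). The groups did not overlap in any of the 4, although the adjusted p in limma stayed between 0.154 and 0.551. The SMA libraries numbered 3, lowest for most members, lay close to the other SMA libraries for this gene and above all controls. Of the other 4, 3 were called lower in at least 1 comparison. Cdkn2c, which encodes an inhibitor of CDK4 and CDK6, was lower on polysomes, at -0.75 at day 5 and -0.90 at day 7. Cdkn2d, of the same family, was lower at day 5 in total and polysomal RNA, at -0.31 and -0.42, and Cdkn1b, which encodes p27, in total RNA of day 5, at -0.30. Cdkn1c was called in none of the 4. Without both libraries numbered 3 of day 7, Cdkn1a was called higher in total and polysomal RNA, at 0.76 and 0.82, and Cdkn2c lower on polysomes, at -0.75.

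Late-symptomatic brains showed fewer called members. In total RNA, 35 of 38 changes were below 0, with a median of -0.42 against 0.00 for all tested genes, but 5 members reached the threshold, against 4.7% of all tested genes called lower and 4.84% called higher. In polysomal RNA, 34 of 38 were below 0, with a median of -0.45, and 2 reached it, against 5.38% called lower and 5.35% higher. A single model over all libraries called 8 in total and 7 in polysomal RNA, and a test of only the genes above 0 in every library called 9 in polysomal RNA. The filter of 5 FPKM and no filter each called fewer in both fractions. The SMA libraries lay below all controls for 6 members in total and 4 in polysomal RNA, against 7.37% and 8.24% of all tested genes. No member passed an adjusted p of 0.05 in limma, as 0.111% and 0.0918% of all tested genes did.

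The members called at day 7 are described here although their share lay near that of all genes on polysomes and the counts fell to 0 with single libraries left out. Nusap1 was called in both fractions. In total RNA it stood at 2.23, 2.43 and 3.37 FPKM in controls and at 1.47, 2.08 and 0.93 FPKM in SMA (-0.85 ± 0.32; limma, adjusted p = 0.504). On polysomes it stood at 2.28, 3.19 and 3.85 against 1.82, 2.13 and 0.92 FPKM (-0.94 ± 0.36; limma, adjusted p = 0.458). Every SMA value lay below every control, and the SMA library numbered 3 was the lowest of each set. Ccnb2 in total RNA stood at 2.44, 2.65 and 3.63 FPKM in controls and 1.81, 2.08 and 0.98 FPKM in SMA (-0.84 ± 0.32). Plk1, the Polo-like kinase of mitotic entry, stood at 1.03, 1.54 and 1.88 against 0.68, 0.94 and 0.79 FPKM (-0.78 ± 0.24; limma, adjusted p = 0.424). For Plk1 the SMA library numbered 3 was not the lowest. Kif11 changed by -0.63 ± 0.23 without overlap. Mcm3, at -0.72 ± 0.26, was the only replication gene called, and its groups overlapped. On polysomes Prc1, which organises the central spindle, stood at 4.35, 5.01 and 6.57 FPKM in controls and 2.74, 4.05 and 2.03 FPKM in SMA (-0.86 ± 0.29; limma, adjusted p = 0.419). Its exons share 911 bases with Rccd1 on the opposite strand. Without both libraries numbered 3 none of these calls remained: Nusap1 was at -0.39 in total and -0.44 in polysomal RNA, Ccnb2 at -0.37, Plk1 at -0.60, Kif11 at -0.30, Mcm3 at -0.51 and polysomal Prc1 at -0.47.

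The proliferation markers overlapped between genotypes at day 7. Cdk1 in total RNA stood at 6.28, 7.90 and 13.1 FPKM in controls and at 5.81, 7.49 and 4.18 FPKM in SMA (-0.60 ± 0.35; limma, adjusted p = 0.634). On polysomes it stood at 7.62, 10.7 and 14.6 against 8.90, 8.30 and 4.01 FPKM (-0.66 ± 0.40; limma, adjusted p = 0.604). Mki67 in total RNA stood at 3.07, 4.21 and 5.24 against 2.99, 3.88 and 1.13 FPKM. The SMA libraries numbered 1 and 2 lay within the range of the controls or just under it, and that numbered 3 far below. Top2a gave a like picture, at 4.79, 6.65 and 9.06 FPKM in controls and 3.70, 6.27 and 1.66 FPKM in SMA. Without both libraries numbered 3, a choice made after their values were seen, 1 member was called in total RNA, Pola1, which was not among the 5, and none in polysomal RNA, and the medians of the members were 0.01 and -0.08. Cdk1 was then at -0.09 and -0.07, Mki67 at -0.08 and -0.14 and Top2a at -0.22 in both fractions. Without the SMA library numbered 3 alone, no member was called in either fraction, and the medians were -0.24 and -0.23. Without the control library numbered 3 alone, 2 and 1 were called, with medians of -0.17 and -0.32. The calls also moved with other libraries: none was left in either fraction without the control numbered 2 and 1 in each without the SMA library numbered 1, while without the SMA library numbered 2 there were 8 in total and 7 in polysomal RNA. Polysomal RNA had 4 without the control numbered 1. Over the libraries numbered 1 and 2, the SMA mean lay below the control mean for 19 of 40 members in total RNA and for 22 in polysomal RNA.

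Whether the genotype difference itself differed between the stages was tested as an interaction. In total RNA no member was called in either direction, against 5.6% and 4.55% of all tested genes, and the median interaction was 0.19. With single libraries left out, this median ran from 0.02 to 0.42. In polysomal RNA 3 members were called in the direction of a smaller fall at day 7, E2f1, Pcna and Prim1, against 6.81% of all, and 2 in the other, Cdt1 and Gins2, against 6.86% (1 and 2 with the length correction). The smaller number of calls at day 7 is therefore not shown to be a smaller difference. In total RNA, 2 members were called without the SMA library of day 5 numbered 2 and without either total library of day 7 numbered 3. In polysomal RNA, 3 were called without the day 5 control numbered 1, the day 5 SMA library numbered 2 or the day 7 control numbered 2.

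Translation efficiency, the polysomal over the total value, was compared between genotypes as the interaction of genotype and fraction. At the early stage it was called higher in SMA for Gins2 and Cdt1 alone, against 1.26% of all tested genes, and lower for none, against 1.06%. Cdk1, whose fall was larger on polysomes than in total RNA, had an interaction of -0.49 ± 0.32 (limma, adjusted p = 1). At the late stage no member was called, against 0.977% lower and 1.09% higher, and none without both libraries numbered 3. A fit with a replicate block called 1. The members' medians were -0.08 and -0.04, so that polysomal and total RNA moved by similar amounts, which does not show them to be equal for any member. With the early control pair numbered 2 left out, 6 members were called at the early stage, and with the late control pair numbered 1 left out 1 was called at the late stage.

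Between day 5 and day 7 the members were lower in control brains too. The stages may have been processed apart, which is not given in the sources used here, so stage and batch cannot be told apart. In control total RNA 14 members were lower at day 7 and 1 higher, against 20.1% of all tested genes in each direction, with a median of -0.78. On control polysomes 22 were lower, against 21.4%, and 2 higher, against 20.7%, with a median of -0.83. The median of all tested genes was -0.03 in both fractions. An adjusted p under 0.05 in limma was reached by 4 and 13 members, against 21.2% and 20.6% of all tested genes. Cdc20 fell most in total RNA, from 7.50 and 8.99 FPKM to 2.65, 2.69 and 4.01 FPKM (-1.40 ± 0.23; limma, adjusted p = 0.0288). The day 7 values lay below both day 5 values. Among the called members, Aurkb, Tpx2 and Aurka followed, at -1.25, -1.14 and -1.08. Changes of a like size that were not called were -1.15 for Bub1b and -1.13 for Cenpf. On polysomes the largest falls were Bub1b, from 10.03 and 7.81 to 2.08, 2.23 and 4.45 FPKM (-1.65 ± 0.39), Cenpf (-1.46), Cdk1 (-1.37) and Tyms (-1.26). The higher ones there were Gins2 and Cdt1, listed at 0 at day 5. Without the day 5 control numbered 2, the calls in either direction dropped from 15 to 3 in total RNA and from 24 to 14 on polysomes. In total RNA they were 6 without the day 7 control numbered 1 or that numbered 2, and 28 without that numbered 3. With only the genes above 0 in every library they were 24, and with the filter of 5 FPKM 7 in total RNA and 11 on polysomes.

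In SMA brains 8 members were lower at day 7 in total RNA and 1 higher, against 17% and 15.7% of all tested genes (5 lower and 3 higher after quantile normalization), and 9 lower and 2 higher on polysomes, against 19.9% and 21.1%. The counts called lower lay near the shares of all tested genes, so the falls of single members below are descriptions. Medians were -0.52 and -0.55, against -0.04 and -0.01 for all tested genes. An adjusted p under 0.05 in limma was reached by none in total RNA, where 848 genes or 5.56% of all tested genes did, and by 3 on polysomes, against 22.7%. Among the called members, Cdc20 again had the largest fall in both fractions, at -1.21 and -1.15, followed by Prc1 at -0.93 and -1.06. On polysomes Bub1b and Cenpf had larger changes that were not called, at -1.49 and -1.25, and in total RNA Cenpf, Bub1b and Ccnb1 lay between Cdc20 and Prc1, at -1.19, -1.06 and -1.05. Mcm6 and Aurka in total RNA changed by -0.92 and -0.89, and Cenpe and Tpx2 on polysomes by -0.88 and -0.86. Polysomal E2f1 rose, from 1.25 and 1.34 FPKM to 2.52, 2.95 and 2.57 FPKM (0.99 ± 0.11; limma, adjusted p = 0.018). Without the day 5 SMA library numbered 1, 5 members were called in total RNA and 3 on polysomes, and without that numbered 2, 1 and 4. Without the day 7 SMA library numbered 2, 18 were called in total RNA, and without that numbered 1, 3 on polysomes. A single model over all libraries called 14 and 20, and the filter of 5 FPKM left 5 and 6. These comparisons use the same libraries as those of genotype and are not independent of them. By level, the summed FPKM of the 40 members was 262.5 and 340.9 in early control total RNA, 191 and 208.9 in early SMA, 169.3, 190.9 and 248.2 in late control and 161.1, 191.1 and 130.8 in late SMA. The early SMA sums lay below both early controls and inside the range of the late controls.

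Pola1, the catalytic subunit of the polymerase that starts new strands, stood apart from most members. In total RNA it rose with age in controls, from 7.71 and 7.02 FPKM to 15.5, 16.1 and 11.2 FPKM (0.93 ± 0.19; limma, adjusted p = 0.0412), and in SMA from 6.34 and 6.64 to 11.7, 8.29 and 10.3 FPKM (0.62 ± 0.17; limma, adjusted p = 0.103). On polysomes it stayed between 1.94 and 3.26 FPKM in all 10 libraries. Its polysomal level in controls was therefore lower than its total level, by a log2 difference of -1.19 ± 0.12 at day 5 and -2.29 ± 0.18 at day 7 (limma, adjusted p = 0.0707 and 0.00508). E2f1 was lower on polysomes as well, 1.89 and 1.93 FPKM against 3.27 and 3.80 FPKM at day 5 (-0.85 ± 0.13) and -0.39 ± 0.14 at day 7. Without the day 7 pair numbered 3, the E2f1 difference was -0.25. Most members were at or above their total level: the median difference was 0.15 at day 5 and 0.18 at day 7, against 0.02 and 0.05 for all tested genes. Without the day 5 pair numbered 1 or 2, the day 5 median was 0.10 or 0.29. Lower polysomal levels were called for 4 members at day 5, the others being Gins2 and Cdt1, against 13.6% of all tested genes, and for 2 at day 7, against 10.6%. Higher ones were called for 5 at day 5, Bub1b, Pcna, Mcm5, Rrm1 and Prim1, against 12.3%, and for Pcna at day 7, against 14.8%. These counts lay near or below the shares of all tested genes. After quantile normalization, 1 lower and none higher was called at day 7. With the day 5 pair numbered 1 or 2 left out, 4 or 5 members were called in place of 9, and with the day 7 pair numbered 2 left out, 1 in place of 3. In a fit with a replicate block, 5 were called at day 5 and 7 at day 7. Pcna stood at 67.0 and 56.4 FPKM on early control polysomes and at 35.7 and 43.4 FPKM in total RNA, without overlap (0.64 ± 0.15; limma, adjusted p = 0.144). Without the pair numbered 1 or 2, this difference was 0.38 or 0.90.

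**Figure D4:**
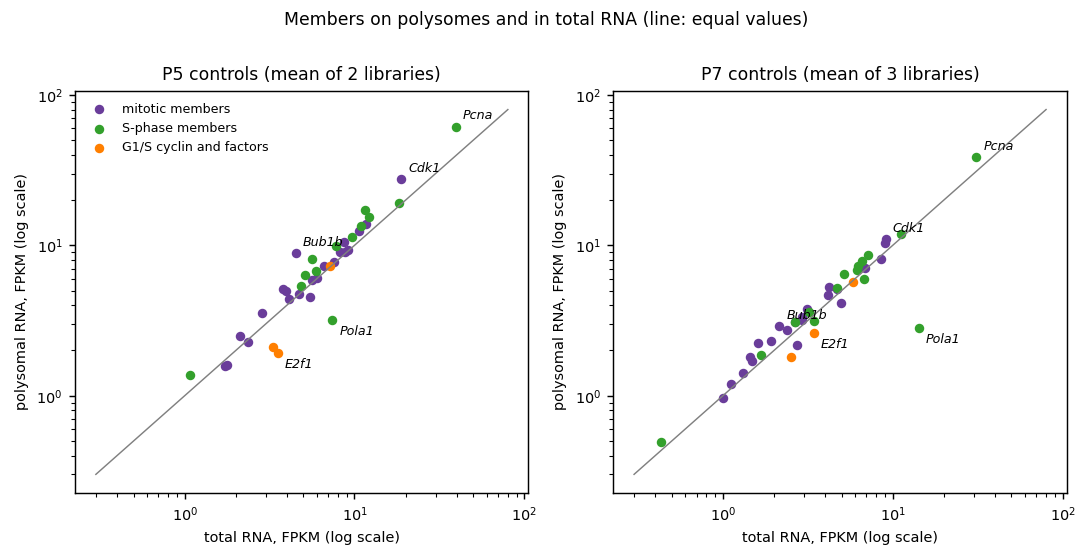
Mean polysomal against mean total FPKM of each member in control brains at day 5 and day 7 (a panel each), on log-scaled axes, with the diagonal of equal levels. Pola1 and E2f1 lie under the diagonal. Gins2 and Cdt1 are not drawn in the day 5 panel, because both are listed at 0 on control polysomes of that stage.

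Markers of the other cells in the tissue were read beside the members. Endothelium was lower in SMA in every comparison, with 8, 6, 8 and 8 of its 9 markers called lower in early total, early polysomal, late total and late polysomal RNA, and medians of -0.63, -0.63, -0.63 and -0.68. Of all tested genes, 3.89%, 6.82%, 4.7% and 5.38% were called lower in the same comparisons. The most abundant endothelial marker was the tight junction gene Cldn5, which stood at 52.9 and 43.8 FPKM in early control and 18.9 and 18.5 FPKM in early SMA total RNA. At the late stage it stood at 26.0, 30.1 and 34.5 against 14.1, 15.5 and 14.2 FPKM, again without overlap. Tek, the angiopoietin receptor, changed by -1.74, -1.54, -1.65 and -1.31. Without both libraries numbered 3 of day 7, 3 and 5 of the 9 were called lower in total and polysomal RNA and 1 higher on polysomes, with medians of -0.48 and -0.47. None of the markers was listed at 0. The part of vessel cells in the members' changes was not tested. At day 7 the median deviation of the 9 markers from their own means was -0.08, 0.08 and 0.24 in the control and -0.66, -0.31 and -0.69 in the SMA total libraries, and that of the 22 mitotic members -0.37, -0.11 and 0.40 and -0.60, -0.21 and -1.26. The control numbered 3 was the highest and the SMA library numbered 3 the lowest for both, with a wider gap to the next SMA library for the members.

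Neural progenitor markers had medians of -0.22, -0.28, -0.17 and -0.16, with 1, 1, 1 and 2 of 9 called lower. Fabp7, the fatty acid binding protein of radial glia and their most abundant marker, stood at 1416 and 1406 FPKM in early control and at 755.6 and 919.7 FPKM in early SMA total RNA. It was called lower there and in both late fractions, at -0.76, -0.57 and -0.66. Without both libraries numbered 3 it was at -0.43 and -0.53, called in total RNA only, and the late medians of the list were 0.02 and -0.01, while those of the precursor markers below were 0.30 and 0.31. Of the 9 markers of cerebellar granule cell precursors 6 were tested, with medians of -0.28, -0.19, 0.16 and 0.14. Barhl1, a homeobox gene of that lineage, was called lower in early total RNA alone (-0.65 ± 0.18). Atoh1, the factor that defines these precursors, was below the filter. In late total RNA it stood at 0.02, 0.20 and 0.51 FPKM in controls and at 0.85, 1.08 and 0.00 FPKM in SMA. Within each genotype, the 3 libraries had the same order for Atoh1 as for the median of the mitotic members, whereas the SMA libraries numbered 1 and 2 lay above all controls for Atoh1 but not for that median. The control library numbered 3 was the highest of the 6 for the median deviation of the precursor markers, at 0.26 against -0.38 and -0.14 in the other controls and 0.20, 0.12 and -0.08 in SMA total RNA. How much of the cerebellum each dissection held is not given. Mature neuron markers had medians of 0.07, 0.32, -0.09 and 0.00, and in late total RNA the control numbered 3 was the lowest library for them, at -0.02 against 0.28 and 0.18 in the other controls. It was the highest for markers of intermediate progenitors and immature neurons, at 0.37 against -0.06 and -0.22. For the neural progenitor markers it was the highest, at 0.14, and the SMA library numbered 3 the lowest, at -0.55. The part of these cells in the members' values was not tested. Erythroid markers had -0.20, -0.57, -0.26 and -0.37, with 1, 0, 0 and 1 of 6 tested called lower. Medians of immature neurons, oligodendrocyte precursors, astrocytes and microglia lay between -0.16 and 0.15, with at most 3 genes of a list called in a direction. Single genes rose among them, such as Aldoc of astrocytes (0.77 in late total RNA) and the complement genes C1qa and C1qb of microglia (0.62 and 0.71). Without both libraries numbered 3, the astrocyte medians were 0.21 and 0.20 in late total and polysomal RNA, and those of mature neurons -0.10 and -0.07. Microglia then had 2 and 1 genes called higher, in place of 3 and 2. No erythroid marker was then called, and 1 and 2 granule cell precursor markers were called higher.

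**Figure D5:**
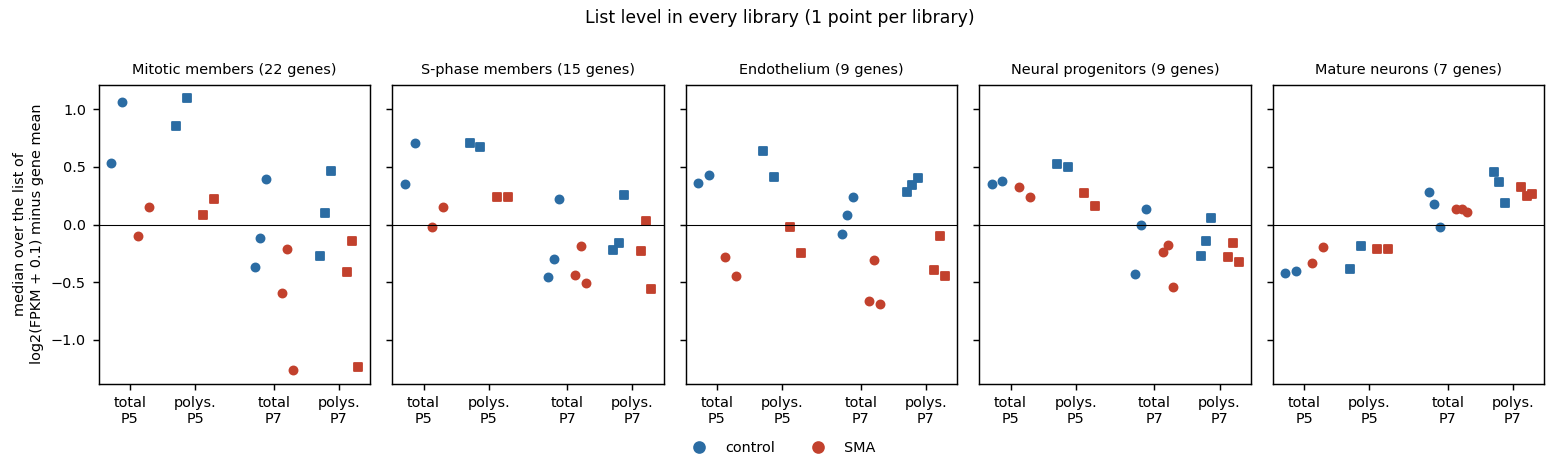
Median deviation of a list's genes from their own means, in log2(FPKM + 0.1), in each of the 20 libraries (points) by stage, fraction and genotype, for the 22 mitotic members, the 15 S-phase members, endothelium (9 genes), neural progenitors (9) and mature neurons (7). The mitotic members separate the genotypes at day 5, from 0.53 and 1.07 in control to -0.10 and 0.16 in SMA total RNA, and scatter at day 7, whereas endothelium separates them at both stages.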

How the data were processed

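Libraries had been made with the TruSeq Stranded Total RNA kit, and reads aligned with TopHat2 (2.0.14) to GRCm38.p4 with Gencode M6 annotation. The deposited values are FPKM per gene, which the authors computed with Cufflinks (2.2.1) for each library; replicates were not pooled. All programs ran at their defaults, under which Cufflinks assumes an unstranded library, so reads of overlapping genes on opposite strands cannot be told apart. The deposited table gives no counts or library totals. The study lists mapped reads per library in its supplement, which were not used here, and no counting interval is given. From the spacing of low values, the FPKM of 1 read multiplied by the transcript length in kilobases is roughly 0.03 to 0.082, the most in the SMA total library of day 7 numbered 3, which was thus the shallowest. For the SMA polysomal library of the same number it was 0.042, as for the control polysomal library numbered 3.

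Groups were taken from the labels. The study's CuffDiff and Xtail need alignments or counts, so limma (3.58.1, R 4.3.3) was fitted to log2(FPKM + 0.1) with a mean-variance trend, on the libraries of each comparison (all 4 groups for interactions), over genes whose mean reached 1 FPKM. Calls were made at an unadjusted p of 0.05, beside Benjamini-Hochberg adjustment over all tested genes. The fit was tested on simulated data. Members and lists were chosen with earlier results of these data known. Values in each library are given for Mki67, Top2a, Cdk1 and, per comparison and direction, up to 4 called members with the largest change and no overlap; of other lists, up to 3. Alternatives were other pseudocounts, filters, scalings, a length correction, no trend, a single model over all libraries, a replicate block and each library left out. Promoters were matched by symbol to RefSeq windows of GRCm38.p6.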

Additional observations from a re-analysis of the deposited data

Results flagged for a closer look

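The interaction of genotype and stage in polysomal RNA was called for 5 of the 38 tested members, 3 higher and 2 lower, against 6.81% and 6.86% of all tested genes, so the number of calls lay near that of all genes. For Cdt1 the interaction was -4.24 and for Gins2 -5.30 on the log2 scale (limma, adjusted p = 0.00067 and 9.87e-06). Both are listed at 0 FPKM in the day 5 control polysomal libraries, as are all 66 tested genes of the chromosome 8 stretch around them, so these values are set by the pseudocount and are no measure of a fold change. For E2f1 the interaction was 0.57 (limma, adjusted p = 0.318): its polysomal level in SMA was lower than in controls at day 5 (1.25 and 1.34 against 1.89 and 1.93 FPKM) and overlapped them at day 7 (2.52, 2.95 and 2.57 against 3.09, 2.35 and 2.38 FPKM). For Pcna it was 0.50 (limma, adjusted p = 0.344), with 43.0 and 38.9 against 67.0 and 56.4 FPKM at day 5 and overlapping values at day 7. For Prim1 it was 0.38 (limma, adjusted p = 0.337). The last 3 did not pass the adjustment, and each lost its call with some library left out.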

How the results depend on the processing

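The counts below are of members called in either direction, with the value reported above first. Shares of all genes called under these other settings were not counted. A mean of at least 5 FPKM tested 17 members and changed 13 to 5 in early total, 28 to 12 in early polysomal, 5 to 0 in late total and 2 to 1 in late polysomal RNA. It changed early translation efficiency from 2 to 1, day 7 against day 5 from 15 to 7 and 24 to 11 in control total and polysomal RNA and from 9 to 5 and 11 to 6 in SMA, polysomal against total RNA at day 5 from 9 to 5, and the polysomal interaction of genotype and stage from 5 to 3. Only genes above 0 in every library gave 25 in early total, 9 in late polysomal, 0 for early translation efficiency, 24 in control total, 15 in SMA total and 17 in SMA polysomal RNA of day 7 against day 5. No filter gave 2 in late total and 1 in late polysomal RNA, and no trend 1 in late polysomal RNA. A single model over all libraries gave 18 in early polysomal, 8 in late total and 7 in late polysomal RNA, and 14 and 20 in SMA day 7 against day 5. Quantile normalization gave 1 for polysomal against total RNA at day 7 and 1 for the total interaction, and the length correction 3 for the polysomal interaction. Without both late libraries numbered 3, added after their values were seen, late total RNA had 1 and late polysomal RNA 0, with a median of -0.0763. Mki67 turned its sign in control polysomal RNA of day 7 against day 5, from 0.07 to -0.16, with the length correction. The cause of these changes was not tested beyond the number of genes or libraries each setting keeps.

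Leaving out each library in turn gave 2 to 16 called in early total, 12 to 25 in early polysomal, 0 to 8 in late total and 0 to 7 in late polysomal RNA, 2 to 6 and 0 to 1 for early and late translation efficiency, 3 to 28 and 14 to 27 in control total and polysomal RNA of day 7 against day 5, 1 to 18 and 3 to 16 in SMA, 4 to 5 and 1 to 3 for polysomal against total RNA at day 5 and day 7, and 0 to 2 and 3 to 7 for the total and polysomal interactions. The median of the members ranged from -0.86 to -0.40 in early total, -0.83 to -0.54 in early polysomal, -0.63 to -0.17 in late total and -0.58 to -0.23 in late polysomal RNA, and from -0.20 to 0.0696 for early translation efficiency. Mki67 ranged from -0.86 to 0.11 in early polysomal RNA, from -0.42 to 0.56 in control polysomal RNA of day 7 against day 5, and from -0.72 to 0.12 and -0.87 to 0.0601 in SMA total and polysomal RNA. Where a pair left out left no residual degrees of freedom, the model over all 20 libraries gave the spread.

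Libraries that share a number across the fractions correlated above 0.1 in 2 of 10 pairs (-0.0391 to 0.109) in their deviations from the group means, and in 8 of 10 (0.0952 to 0.449) over genes above 0 everywhere, the latter with all 6 day 7 pairs (0.162 to 0.449). The labels do not say what a number marks, and whether the numbers pair the libraries was not settled. A replicate block gave 1 call for late translation efficiency, 5 for polysomal against total RNA at day 5 and 7 at day 7, and with the length correction 1 and 8 for the first and last. Across genes, the early change rose with transcript length (Spearman 0.393 in total RNA, 0.31 in polysomal RNA), and the length correction left 18 and 24 members called lower. The median length of the 40 members was 3462.5 bases and that of all tested genes 3172 bases. No scaling moved the median of all genes by over 0.1. Depth limits low values most in the SMA total library of day 7 numbered 3, not in the polysomal library of that number.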
